A study of Mus musculus with 24 samples.

Results

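The data compared here are 12 of the 24 real-time PCR arrays of the series, those of activated muscle stem cells taken 72 h and 60 h after muscle injury. The arrays were chosen by their titles, and each time point has 3 replicates on a card of type A and 3 on a card of type B. The cells came from 8-week-old male C57BL/6 mice with no genotype or drug treatment named in the labels, and the other 12 arrays, of quiescent cells (0 h) and cells 36 h after injury, enter only the shared estimate of the spread. Per the design text of the series the replicates are technical, so every p-value below covers technical spread and none covers differences between mice. No label describes a cell sort, and the number of mice behind a sample is not given in the labels. The deposited tables of the authors head their last time point as day 3.5 where the labels of the arrays say 72 h. The labels were followed, so the interval between the groups rests on them.

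MicroRNAs (miRNAs) are short RNAs that guide a protein complex to partly complementary sites in messenger RNAs and lower their translation and stability. The seed, bases 2 to 8 from the 5′ end, does most of the pairing, so miRNAs with the same seed share many targets. A hairpin precursor gives a strand from each arm, and in the older names used by these cards the less abundant strand, the passenger, carries an asterisk. Muscle stem cells lie quiescent beside the muscle fibre, and after injury they divide as myoblasts and then leave the cell cycle to fuse. miR-206, miR-133b, miR-1 and miR-133a are known to accumulate as muscle cells differentiate, while the miR-17-92 cluster is known to favour division.

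The mature sequences below are those that the results turn on, from RefSeq (GRCm38.p6), 5′ to 3′, with the seed in capitals. The files give no probe sequences, so each assay was matched by its name, and the arm of a name without an asterisk follows older naming. All 34 names looked up had an entry. The first set shares AGCAGC at the start of the seed and holds miRNAs that differed in direction.
miR-195: uAGCAGCAcagaaauauuggc
miR-497: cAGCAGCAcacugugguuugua
miR-15b: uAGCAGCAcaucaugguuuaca
miR-16: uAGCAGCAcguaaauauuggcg
miR-322: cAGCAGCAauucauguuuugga
miR-503: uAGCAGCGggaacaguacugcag
The second set holds the muscle miRNAs of chromosome 1 and the miRNAs of the calcitonin receptor gene Calcr.
miR-206: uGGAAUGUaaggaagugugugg
miR-133b: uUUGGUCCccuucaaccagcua
miR-489: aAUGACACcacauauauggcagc
miR-653: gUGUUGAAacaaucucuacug
The third set shows guide strands of the miR-17-92 cluster and its paralog miR-106b with their passengers, whose seeds differ from those of the guides.
miR-17: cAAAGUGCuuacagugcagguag
miR-17*: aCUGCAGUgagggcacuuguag
miR-20a: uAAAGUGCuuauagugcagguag
miR-20a*: aCUGCAUUacgagcacuuaaag
miR-106b: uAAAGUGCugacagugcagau
miR-106b*: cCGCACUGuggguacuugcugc
miR-19b: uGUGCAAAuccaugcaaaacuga
The fourth set holds the assays with the largest decreases, with a passenger strand that did not follow, and the pair miR-221 and miR-222 of chromosome X.
miR-29a: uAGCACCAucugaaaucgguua
miR-29b: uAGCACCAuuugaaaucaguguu
miR-29b*: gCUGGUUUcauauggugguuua
miR-376b: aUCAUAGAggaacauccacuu
miR-376b*: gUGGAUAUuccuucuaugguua
miR-221: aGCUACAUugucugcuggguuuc
miR-222: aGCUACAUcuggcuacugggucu

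The level of an assay is its distance in PCR cycles from U6 small nuclear RNA on the same array (U6 threshold cycle, Ct, minus assay Ct). It is a log2 value and 1 unit is a doubling, with 0 at the level of U6. Assays differ in efficiency, so levels are compared within an assay only. An assay was detected where all its spots had a Ct below 35. Of 584 assays, 271 were detected on 3 of 3 arrays at 60 h and 264 at 72 h, 255 of them at both, and 261 on none of the 6 arrays of their card. Per array the number was 188 to 190 at 60 h and at least 191 at 72 h on card A, and 97 to 100 and 89 to 94 on card B. Ct values carry no read depth, and the number of arrays limits the precision. The median standard deviation over replicates was 0.11 at 60 h and 0.13 at 72 h.

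The comparison asked which miRNAs differ between the last pair of time points after injury. Relative to U6 most assays were lower at 72 h. Of 265 tested assays, 96 fell (36.2% of those tested) and 2 rose (0.755%), 98 in all (37%), by limma at an adjusted p under 0.05 and a minimum change of 2-fold. On the adjusted p alone 179 were lower (67.5%) and 23 higher (8.68%). The 96 had log2 changes between -2.96 and -1.01, with a median of -1.42, and 73 of them lay on card A and 23 on card B. The assays that rose were miR-133a, a muscle miRNA, and miR-503, which has the AGCAGC start. The replicates of both groups did not overlap for 207 of the 255 assays detected throughout (81.2%). In RNA from whole samples, fewer cells that make a miRNA and less of it per cell cannot be told apart.

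The size of this fall depends on the reference RNA. The median log2 change of the tested assays was -0.75 with U6, -0.87 on card A and -0.59 on card B. On card A the other control RNAs were also lower against U6: snoRNA202 by a log2 difference of -0.64 ± 0.05 (SE, n = 3), snoRNA135 by -0.53 ± 0.06, U87 by -0.45 ± 0.11 and Y1 by -0.43 ± 0.05. On card B, run from the same labelled samples, they were near U6: -0.06 ± 0.11 for snoRNA202, 0.06 ± 0.07 for snoRNA135, -0.05 ± 0.08 for U87 and -0.15 ± 0.12 for snoRNA429, with 0.47 ± 0.11 for Y1. The mean U6 Ct went from 15.39 to 15.12 on card A and from 15.48 to 15.60 on card B. Before any normalizer, the median assay came up 0.59 cycles later at 72 h on card A and 0.69 cycles later on card B. The part of these shifts in the calls was not tested beyond the following counts. With snoRNA202 the assays called lower numbered 37 (14% of those tested) and those called higher 9 (3.4%). With snoRNA135 they numbered 51 (19.2%) and 8 (3.02%), and with Y1 77 (29.1%) and 7 (2.64%). The global mean, which takes the mean of the assays detected on every array of a card, gave 17 lower (6.42%) and 25 higher (9.43%). Many results below are therefore also given with another normalizer or against the median of their card, where stated. Called with all of these normalizers were miR-133a and miR-503 as higher and 17 assays as lower: miR-29b, miR-376b, miR-106b*, miR-331-5p, miR-497, miR-20a*, miR-340-5p, miR-221, miR-195, miR-33*, let-7g*, miR-17*, rno-miR-489, miR-374, rno-miR-352, miR-592 and rno-miR-7a*. Of these, miR-331-5p and miR-592 were detected on 2 of 3 arrays at 72 h. Their mean levels there were -18.49 and -18.29, and that of let-7g* was -18.06, all near the detection limit.

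**Figure D1:**
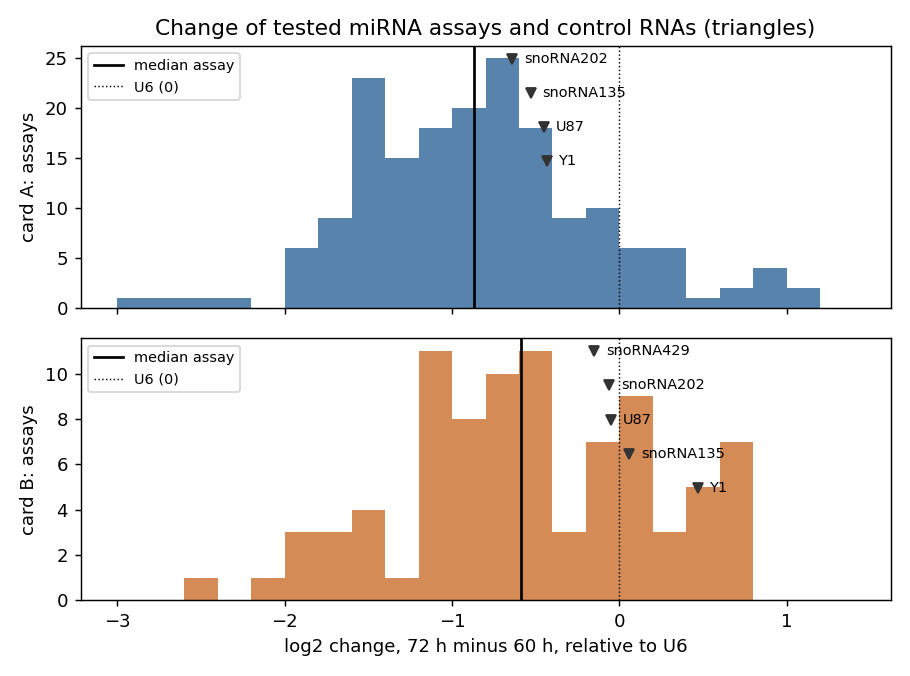
Number of tested assays by log2 change, 72 h minus 60 h, relative to U6, for card A (178 assays) and card B (87 assays). The line marks the median assay, -0.87 on card A and -0.59 on card B, and the triangles mark the control RNAs, which lie between -0.64 and -0.43 on card A and between -0.15 and 0.47 on card B.

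The muscle-enriched miRNAs went against the general fall. Of 10 assays on the cards, 6 were tested and every one of these had a value above 0, with a median log2 difference of 0.64 where the median of all tested assays was -0.75. By the call rule 1 of the 6 rose, with 0.755% called higher among all tested assays. The count was 5 of 6 with the global mean and 3 of 6 with snoRNA202. The 4 others, miR-208, miR-208b, miR-486 and miR-499, were undetected on all 6 arrays.

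miR-133a had levels of -7.88, -8.11 and -7.89 at 60 h and of -6.87, -6.97 and -7.02 at 72 h. Every 72 h array was above every 60 h array, a 2.01-fold rise (log2 1.01 ± 0.07, adjusted p = 5.64e-07 by limma). The change lies at the 2-fold minimum: it was 0.93 without replicate 2 of 60 h and 0.97 without replicate 1 of 72 h, where the call ends. miR-206, the muscle-specific miRNA known to repress Pax7, had levels of -1.83, -1.80 and -1.81 at 60 h and of -0.99, -1.03 and -1.07 at 72 h. The groups stood apart, with a 1.72-fold difference (log2 0.78 ± 0.11, adjusted p = 4.99e-05 by limma) below the 2-fold minimum. The difference of miR-206 was 1.21, a call, with the global mean. It was not called with snoRNA202 (0.84), snoRNA135 (0.72) or Y1 (0.31). miR-133b lies on chromosome 1 with miR-206, at chr1:20682834-20682855 and chr1:20679055-20679076 on the plus strand. Its levels were -7.13, -7.23 and -7.13 at 60 h and -6.58, -6.58 and -6.82 at 72 h (log2 0.50 ± 0.11, adjusted p = 0.00157), again without overlap.

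The mouse assay of miR-1, a miRNA of heart and skeletal muscle, had a mean level of -13.72 (SD 0.35) at 60 h, with its highest array at -13.33, and levels of -12.91, -12.88 and -12.78 at 72 h (log2 0.86 ± 0.23, adjusted p = 0.00662). The spread lay in the 60 h group, and without its replicate 3 the difference was 1.05, past the 2-fold minimum. The rat assay of miR-1 showed less, 0.34 ± 0.07 (adjusted p = 0.00207). miR-378, which arises from the metabolic gene Ppargc1b, had a difference of 0.08 ± 0.13, and its groups overlapped. Relative to the median of their card, the values were 1.88 for miR-133a, 1.73 for miR-1, 1.37 for both miR-206 and miR-133b, 1.21 for the rat assay of miR-1 and 0.67 for miR-378.

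**Figure D2:**
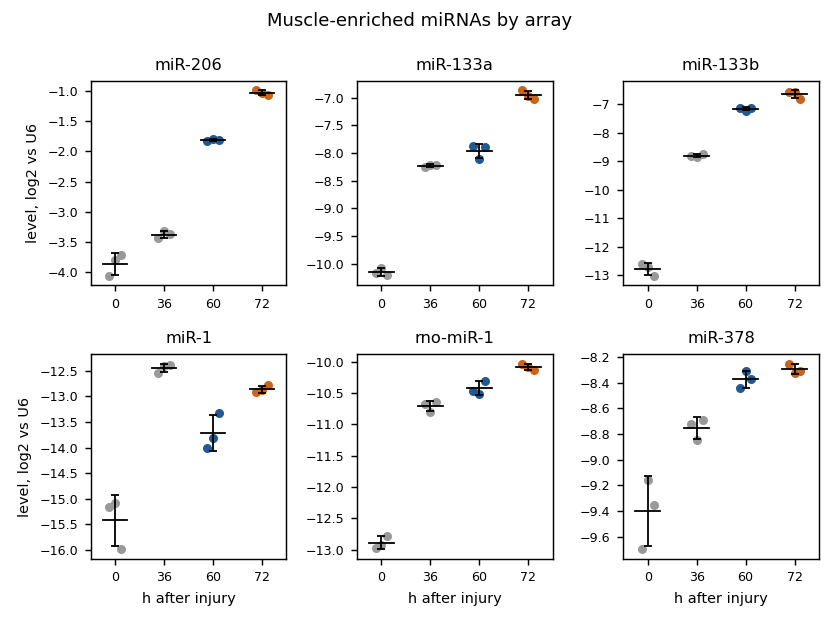
Level of 6 muscle-enriched assays (log2, U6 at 0) on each array against hours after injury, with the mean and standard deviation of 3 replicates as bars; 60 h is blue, 72 h orange, and 0 h and 36 h are grey. miR-206, miR-133a, miR-133b and both assays of miR-1 have all 72 h arrays above all 60 h arrays, while miR-378 does not.

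The miR-15/16 family, whose members are known to repress cyclins and other cell cycle messengers, did not move as a unit. Of 6 tested members 3 fell, 1 rose and miR-16 and miR-322 passed neither way, where 36.2% of all tested assays fell and 0.755% rose. miR-15a was not tested, with 1 array detected in each group. With both the global mean and snoRNA202, 2 fell and 1 rose. miR-195 and miR-497, neighbours on chromosome 11 (chr11:70235062-70235082 and chr11:70234730-70234751, plus strand), fell the most. miR-497 had levels of -10.37, -10.47 and -10.54 at 60 h and of -12.72, -12.88 and -12.67 at 72 h, a 4.91-fold fall (log2 -2.29 ± 0.07, adjusted p = 2.55e-09). miR-195 went from -6.78, -6.74 and -6.79 to -8.78, -8.63 and -8.59, a 3.72-fold fall (log2 -1.89 ± 0.06, adjusted p = 2.55e-09). For both the gap between the groups was many times the spread within them, and the calls remained with all 4 other normalizers.

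miR-15b fell 2.75-fold (log2 -1.46 ± 0.05, adjusted p = 3.29e-09), a call also made with Y1 and lost with snoRNA202 (-0.82), snoRNA135 and the global mean (-0.58). miR-16 had levels of -3.93, -3.93 and -3.94 at 60 h and of -4.85, -4.82 and -4.99 at 72 h. Its log2 difference of -0.95 ± 0.05 lay just under the 2-fold minimum and stood at -0.08 relative to the card median.

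miR-322 and miR-503, neighbours on chromosome X (chrX:53054306-53054327 and chrX:53054027-53054049, minus strand), are known to promote cell cycle exit in muscle cells. miR-503 had levels of -16.76, -17.32 and -16.61 at 60 h and of -15.65, -15.72 and -15.76 at 72 h, a 2.27-fold rise (log2 1.18 ± 0.21, adjusted p = 0.00102). The groups did not overlap, but without replicate 2 of 60 h, the lowest array, the change was 0.97 and the call ends. With a mean U6 Ct of 15.39 on card A at 60 h, its levels there lie near or past Ct 32. A detection limit of Ct 32 leaves too few 60 h arrays to test miR-503. miR-322 had levels of -10.78, -11.25 and -11.09 at 60 h and of -10.95, -11.03 and -11.15 at 72 h. Its groups overlapped (log2 -0.01 ± 0.28, adjusted p = 0.985), and it stood 0.86 above the card median. Counted from the 5′ end, miR-503 differs from miR-322 within the seed by A8G, and the bases before it in the seed are shared.

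Other strands of this X-chromosome region were looked up after these values were seen. The passenger miR-322* had a log2 difference of 0.80 ± 0.31 (adjusted p = 0.0352) and miR-503* of 0.61 ± 0.16 (adjusted p = 0.00503), both on card B and both under the 2-fold minimum. For miR-351, whose gene lies at chrX:53053315-53053338, the rat assay had levels of -12.73, -12.84 and -12.76 at 60 h and of -11.80, -11.97 and -11.74 at 72 h. This is a 1.92-fold difference without overlap (log2 0.94 ± 0.10, adjusted p = 5.36e-05), while the mouse assay of miR-351 was undetected on all 6 arrays. miR-542-3p of the same region, at chrX:53049415-53049436, fell 2.89-fold instead (log2 -1.53 ± 0.31, adjusted p = 0.0017), and was no longer called with snoRNA202 (-0.89) or the global mean (-0.65). miR-450a-5p had a difference of -0.47 ± 0.49, with overlapping groups.

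**Figure D3:**
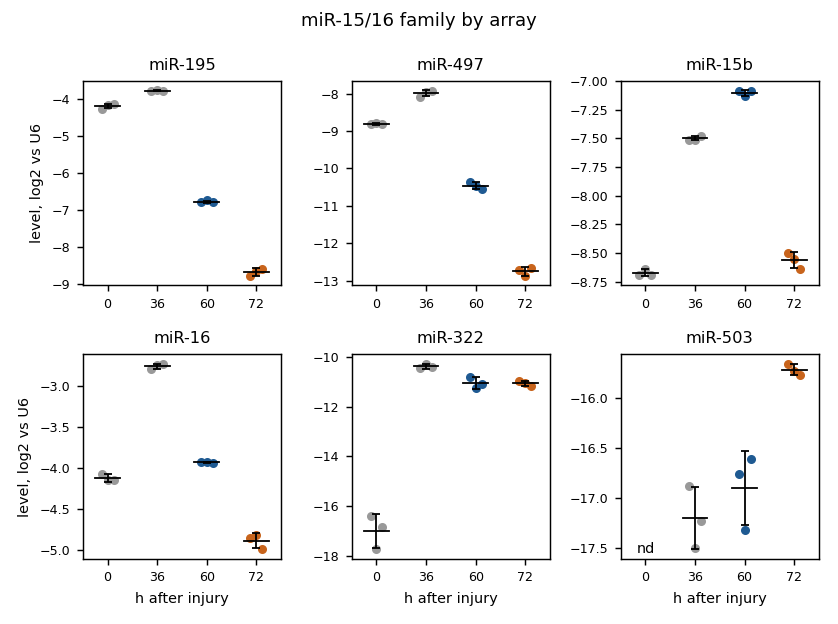
Level of 6 miRNAs with AGCAGC at the start of the seed (log2, U6 at 0) on each array against hours after injury, with mean and standard deviation of 3 replicates; 60 h is blue, 72 h orange, 0 h and 36 h grey, and nd marks a group with no detected array. miR-195, miR-497, miR-15b and miR-16 are lower at 72 h than at 60 h on every array, miR-322 overlaps and miR-503 is higher.

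The miR-17-92 cluster and its paralogs fell together relative to U6. All 11 tested assays of 13 on the cards fell, with log2 changes from -1.85 to -1.29 and a median of -1.45, where 36.2% of all tested assays fell. Against their card median the list's median was -0.58. With the global mean none of the 11 was called, and with snoRNA202 3 were called. Each of the 11 was lower with the global mean at an unadjusted p under 0.05. By that normalizer 161 of all 265 tested assays passed the adjusted p alone, counting both directions. All 11 are on card A. miR-18b was undetected on all 6 arrays and miR-363 was detected on 1. The rat assay rno-miR-20b-5p on card B, outside the list by its name, had a difference of -0.75 ± 0.25 (adjusted p = 0.0165).

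miR-19b fell the most of the list: its levels were -2.85, -2.90 and -2.94 at 60 h and -4.74, -4.70 and -4.79 at 72 h, a 3.60-fold fall (log2 -1.85 ± 0.05, adjusted p = 1.8e-09). miR-19a fell 3.44-fold (-1.78 ± 0.07), miR-25 3.31-fold (-1.72 ± 0.08) and miR-18a 2.99-fold (-1.58 ± 0.08). miR-17 had levels of -2.58, -2.65 and -2.57 at 60 h and of -3.86, -3.90 and -4.08 at 72 h (log2 -1.35 ± 0.07, adjusted p = 4.58e-08). The arrays of miR-17 and miR-19b lay tightly around their means, so the fall of each was many times its spread.

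Of the passenger strands of these hairpins tested with their guides, 3 were called with every normalizer and had larger falls than their guides. The other two, miR-18a* (log2 -0.62, guide -1.58) and miR-93* (-0.90, guide -1.29), were not called and lay above their guides. miR-106b*, from chr5:138165746-138165767, had levels of -11.48, -12.12 and -11.59 at 60 h and of -13.99, -14.40 and -14.06 at 72 h, a 5.38-fold fall (log2 -2.43 ± 0.38, adjusted p = 0.000325). miR-20a*, from chr14:115044219-115044240, went from -12.69, -12.73 and -12.57 to -15.17, -14.50 and -14.63, a 4.30-fold fall (log2 -2.10 ± 0.27, adjusted p = 8.41e-05). miR-17* fell 3.60-fold (log2 -1.85 ± 0.41, adjusted p = 0.00275), with a standard deviation of 0.53 at 60 h and 0.80 at 72 h. Guides and passengers sit on different cards, each normalized alone, so the difference between strands was not tested.

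The miR-29 family, known to repress collagen messengers and reported to promote muscle differentiation, fell for 3 of 3 members, where 36.2% of all tested assays fell. miR-29b had the largest decrease of all tested assays. Its levels were -14.06, -13.82 and -13.93 at 60 h and -17.40, -16.94 and -16.35 at 72 h, a 7.78-fold fall (log2 -2.96 ± 0.36, adjusted p = 2.84e-05). The spread was wider at 72 h, where the RNA was scarce, yet the groups were far apart. miR-29c fell 3.34-fold (-1.74 ± 0.10), and miR-29a went from -4.38, -4.41 and -4.41 to -5.95, -5.89 and -6.16, a 3.04-fold fall (log2 -1.60 ± 0.07, adjusted p = 2.45e-08). With the global mean 1 of the 3, miR-29b, was called, and with snoRNA202 it was 2. miR-29b differs from miR-29a by C10U, G18A, U21G and A22U and by a further U at its 3′ end (23 bases against 22). Their seeds are the same. The passenger of a miR-29b hairpin, miR-29b* (chr6:31063067-31063088), had overlapping groups: its levels were -9.92, -9.89 and -9.97 at 60 h and -9.92, -9.85 and -9.99 at 72 h (log2 0.00 ± 0.12). The mean level of miR-29b* was -9.97 at 0 h and -9.89 at 36 h, so this assay hardly differed at any time point. The means of miR-29b at 0 h and 36 h were -16.99 and -14.06. miR-29b comes from a second hairpin on chromosome 1 as well, which the assay of miR-29b* was not matched to.

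The miRNAs within Calcr, a gene active in quiescent muscle stem cells, were lower at 72 h than at 60 h. miR-489, reported to keep these cells quiescent, lies at chr6:3721922-3721944 and miR-653 at chr6:3721355-3721375, both on the minus strand. The mouse assay of miR-489 had levels of -13.82, -13.60 and -14.30 at 60 h and of -15.58, -15.91 and -15.68 at 72 h, a 3.52-fold fall (log2 -1.81 ± 0.16, adjusted p = 2.85e-06). The rat assay, on card B, went from -15.42, -14.94 and -14.96 to -17.27, -16.61 and -16.45, a 3.18-fold fall (log2 -1.67 ± 0.21, adjusted p = 3.04e-05). Both assays of miR-489 were thus called lower, where 36.2% of all tested assays fell. With the global mean the rat assay was called (-1.24) and the mouse assay was not (-0.94). miR-653 was detected on 3 of 3 arrays at 60 h (-17.62, -18.35 and -18.39) and on none at 72 h, 2.17-fold above its highest spot there. The published work on these samples was about miR-489, so the list is no independent evidence of its direction.

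The imprinted Dlk1-Dio3 locus on chromosome 12, a large cluster of miRNA genes, held members that moved apart. Of 56 assays on the cards 30 were undetected on all 6 arrays and 20 were tested, of which 8 fell and 0 rose by limma. At an unadjusted p under 0.05 the counts were 13 lower and 1 higher, and 5 of the 20 were above 0. Of all tested assays 67.5% were lower and 8.68% higher on the adjusted p alone. The median was -0.68, beside -0.75 for all tested assays, of which 36.2% fell. With the global mean 1 fell and 5 rose, and with snoRNA202 2 fell and 1 rose. miR-376b (chr12:109723508-109723528) led with levels of -12.64, -12.76 and -12.41 at 60 h and of -14.88, -15.81 and -15.04 at 72 h, a 6.23-fold fall (log2 -2.64 ± 0.23, adjusted p = 2.17e-06). Its relatives fell less, miR-376c 2.35-fold (-1.24 ± 0.09) and miR-376a 2.20-fold (-1.13 ± 0.08). miR-337-3p fell 3.34-fold (-1.74 ± 0.37), miR-136 3.01-fold (-1.59 ± 0.20) and the rat assay of miR-381 2.74-fold (-1.46 ± 0.13).

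Others of the locus differed little or were above 0. miR-127, which is antisense to the retrotransposon-like gene Rtl1, had levels of -9.87, -9.68 and -9.62 at 60 h and of -9.85, -9.92 and -9.91 at 72 h, with overlap (log2 -0.17 ± 0.07, adjusted p = 0.0443). The difference was 0.71 with the global mean. miR-409-3p was at 0.18 ± 0.07 and miR-134 at 0.37 ± 0.17. The passenger miR-376b* overlapped between the groups (-0.59 ± 0.23, adjusted p = 0.0349). The passenger miR-485*, outside the list and named after its value was seen, had levels of -13.83, -13.41 and -13.81 at 60 h and of -12.79, -12.91 and -13.06 at 72 h (log2 0.76 ± 0.15, adjusted p = 0.000834). miR-543 was detected on 3 of 3 arrays at 72 h and on 1 at 60 h, at a level only 1.02-fold above that array.

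A few assays outside the lists are named here because their values were above 0. miR-335, within the gene Mest (chr6:30741354-30741375 for the 3p strand), had 3p levels of -8.89, -8.95 and -8.91 at 60 h and of -8.10, -7.79 and -7.90 at 72 h. The difference was 1.98-fold (log2 0.99 ± 0.11, adjusted p = 1.48e-05), just under the minimum, and was called with the 4 other normalizers. The 5p strand stood at 0.35 ± 0.10 (adjusted p = 0.00896). miR-675-3p, which is cut from the RNA H19, was at 0.87 ± 0.25 (adjusted p = 0.0207). miR-501-3p of chromosome X was at 0.80 ± 0.15 (adjusted p = 0.00156).

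miR-221 and miR-222, which repress the cell cycle inhibitor p27 and lie side by side at chrX:19146307-19146329 and chrX:19146901-19146923, both fell, where 36.2% of all tested assays fell. miR-221 had levels of -7.56, -7.75 and -7.65 at 60 h and of -9.60, -9.51 and -9.78 at 72 h, a 3.93-fold fall (log2 -1.97 ± 0.08, adjusted p = 1.35e-08). miR-222, with the same seed, went from -4.06, -4.30 and -4.22 to -5.44, -5.45 and -5.69, a 2.53-fold fall (log2 -1.34 ± 0.08, adjusted p = 1.27e-07). miR-222 was no longer called with any of snoRNA202 (-0.69), snoRNA135, Y1 or the global mean (-0.46), while miR-221 was called with each. Further decreases of the largest kind were miR-340-5p (3.95-fold, -1.98 ± 0.23), miR-33* (3.70-fold, -1.89 ± 0.29) and let-7g* (3.62-fold, -1.86 ± 0.40).

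Several larger families stood near or below the median of their card, and their calls depended on the normalizer. Their counts stand beside the 36.2% called lower of all tested assays. Of the let-7 family, known for repressing growth messengers in differentiated cells, 4 of 6 tested members fell, with a median of -1.26 and values from -1.34 to -0.93. let-7i fell 2.53-fold (-1.34 ± 0.07), let-7g 2.48-fold (-1.31 ± 0.08), let-7d 2.44-fold (-1.28 ± 0.07) and let-7e 2.36-fold (-1.24 ± 0.10). In the miR-30 family 4 of 5 fell (median -1.08), led by miR-30a (2.23-fold, -1.16 ± 0.08), and both tested miR-181 assays fell, miR-181a 2.13-fold and miR-181c 2.09-fold. The calls of miR-30c (-0.99 without replicate 3 of 72 h) and miR-181c (-0.83 without replicate 2 of 72 h) end with that array left out. Both miR-26 assays, reported to repress the chromatin enzyme Ezh2, fell, miR-26b 3.01-fold (-1.59 ± 0.06) and miR-26a 2.20-fold (-1.14 ± 0.05). None of the let-7, miR-30, miR-181 or miR-26 assays was called with the global mean or with snoRNA202. At an unadjusted p under 0.05, 4 let-7, 4 miR-30 and 2 miR-26 assays were lower with the global mean, and 0 of the miR-181 assays. By that normalizer 161 of all 265 tested assays passed the adjusted p alone, in either direction. In the list of miR-99, miR-100 and miR-125 4 of 7 fell: miR-99a (log2 -1.81 ± 0.09), miR-125b-5p 3.36-fold (-1.75 ± 0.04), miR-100 3.01-fold (-1.59 ± 0.10) and miR-99b 2.22-fold (-1.15 ± 0.12). Of these 4, miR-99a and miR-125b-5p were called with snoRNA202 and none with the global mean.

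Of 4 tested assays of the miR-23/27/24 clusters 1 fell, miR-27a by 2.45-fold (-1.29 ± 0.05), where 36.2% of all tested assays fell. miR-23b (-1.0 ± 0.09), miR-24 (-0.91 ± 0.06) and miR-27b (-0.97 ± 0.10), the last reported to repress Pax3, lay near the 2-fold minimum and near the card median. miR-27b was called when replicate 2 of 60 h or replicate 1 or 2 of 72 h was left out, with values from -1.06 to -1.01, and miR-23b without replicate 2 of either group (-1.07 and -1.09). miR-130a fell 2.62-fold (-1.39 ± 0.08), whereas miR-301a and miR-301b stood at -0.67 and miR-130b at -0.59 ± 0.13. No assay of the miR-148 and miR-152 list was called, with 2 lower at an unadjusted p under 0.05: miR-152 was at -0.68 ± 0.06, miR-148a at -0.62 ± 0.12 and miR-148b at 0.00 ± 0.30. On the adjusted p alone 67.5% of all tested assays were lower. Of the miR-34 and miR-449 list 1 of 4 fell, miR-449a by 2.66-fold (-1.41 ± 0.48, adjusted p = 0.0247). That call ends without replicate 2 or 3 of 60 h or replicate 3 of 72 h. miR-34a, detected on 2 of 3 arrays in each group, was at -0.86 ± 0.18 and miR-34c at -0.74 ± 0.16. miR-449c was at -0.84 ± 0.35 and was called without replicate 3 of 60 h (-1.07) or of 72 h (-1.05).

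miR-31, reported to repress the myogenic factor Myf5, had levels of -5.15, -5.19 and -5.20 at 60 h and of -6.13, -6.02 and -6.16 at 72 h. The groups did not overlap, but the difference was 1.90-fold (log2 -0.92 ± 0.09, adjusted p = 6.66e-06), under the minimum, and it stood at -0.06 relative to the card median. miR-21, a miRNA induced in many dividing cells, went from -7.49, -7.65 and -7.50 to -8.92, -9.03 and -8.98, a 2.70-fold fall (log2 -1.43 ± 0.06, adjusted p = 1.09e-08) that was called with U6 alone among the 5 normalizers. miR-182 did not pass (-0.95 ± 0.44, adjusted p = 0.073), although its levels of -9.41, -9.51 and -9.45 at 60 h and of -10.38, -10.25 and -10.59 at 72 h did not overlap. Its standard error is pooled over the 4 groups. miR-183 of the same cluster fell 3.03-fold (-1.60 ± 0.19), called with Y1 and snoRNA135 but not with snoRNA202 or the global mean, and miR-96 was undetected.

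**Figure D4:**
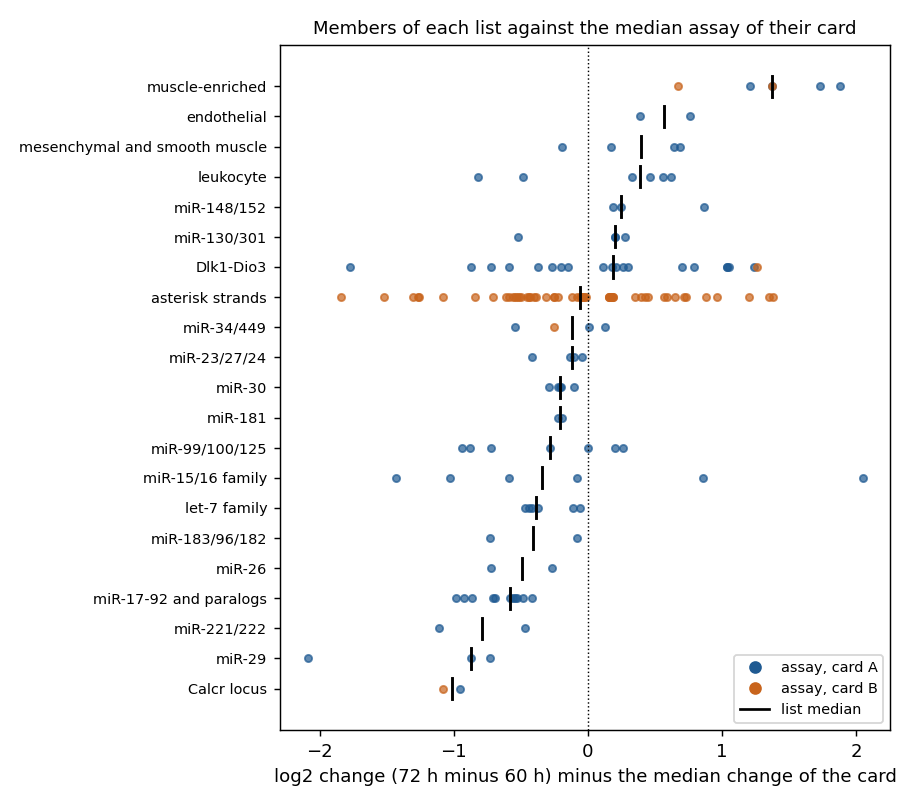
Log2 change of each tested assay, 72 h minus 60 h relative to U6, minus the median change of its card, by list, with list medians as bars. Muscle-enriched assays stand to the right (median 1.37), the lists of other cell types lie between 0.39 and 0.57 for leukocyte, mesenchymal and endothelial assays, and the miR-17-92 (-0.58), miR-221 and miR-222 (-0.79), miR-29 (-0.87) and Calcr (-1.01) lists stand to the left.

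Passenger strands lay on both sides of their guides. Of 53 tested assays with an asterisk, 17 fell and 0 rose by limma, beside 36.2% called lower of all tested assays, with a median of -0.65. At an unadjusted p under 0.05 the counts were 34 lower and 4 higher, where 67.5% of all tested assays were lower and 8.68% higher on the adjusted p alone. For 42 pairs both strands of a hairpin were tested. The passenger lay below the guide in 20 of these pairs, each taken relative to the median of its card, and the median difference between strands was 0.01. All these passengers are on card B, where many tested assays are passengers, and most of the guides are on card A. Subtracting the card medians therefore sets the typical difference near 0 beforehand, and the even split says nothing about the strands. miR-31* followed miR-31 closely (-0.06 for both against the card median). At the extremes the passenger stood above the guide by 2.68 for miR-29b*, by 1.76 for miR-376b* and by 1.10 for rno-miR-99a*. The difference was -1.42 for miR-193*, whose guide has a standard error of 0.56, and -1.28 for miR-106b*.

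**Figure D5:**
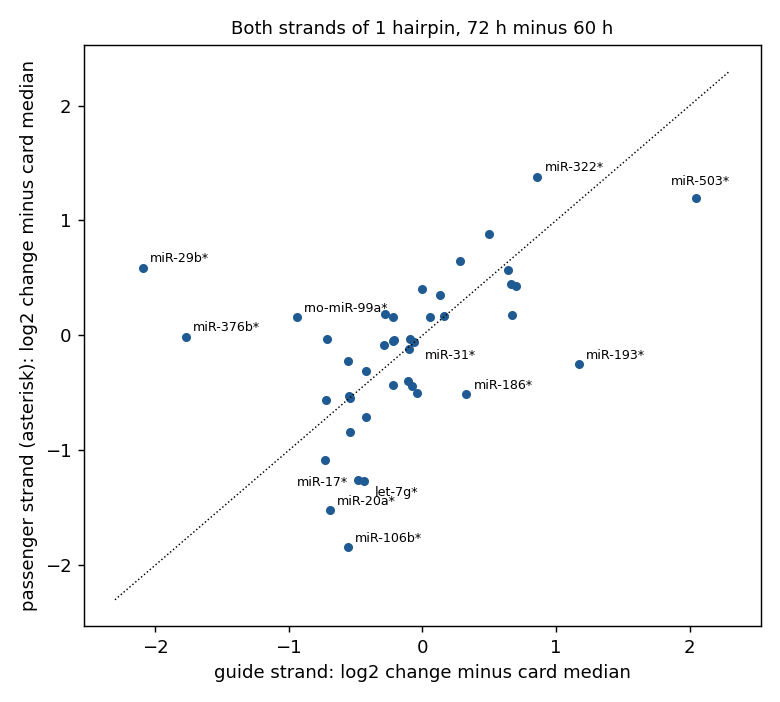
Log2 change of the passenger strand (vertical axis) against the guide strand (horizontal axis) of 42 hairpins, 72 h minus 60 h relative to U6 and minus the median of the card, with equality as the dotted line. Points scatter on both sides of the line, with miR-29b* and miR-376b* far above it and miR-106b* and miR-193* below it.

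A further 6 assays were detected on 3 of 3 arrays at 72 h and on at most 1 at 60 h, and 11 the other way. Some spot of the other group was below Ct 35 for 2 of the 6 and 10 of the 11. At 72 h miR-129-3p was at least 4.86-fold higher (levels -17.70, -17.83 and -16.45) and miR-339-3p at least 4.82-fold, with 60 h set to Ct 35, and miR-423-5p was 1.37-fold above its highest 60 h spot. At 60 h miR-183* had levels of -12.87, -12.90 and -12.56, 7.61-fold above its highest 72 h spot. miR-15b*, the passenger of miR-15b, had levels of -11.23, -11.41 and -11.35, 5.29-fold above its highest 72 h spot. miR-215, a miRNA of gut and kidney, was 5.73-fold above such a spot and miR-879* at least 6.16-fold higher at 60 h. At 60 h the mean Ct was 28.3 for miR-183* and 26.8 for miR-15b*, far from the limit, whereas the 9 other assays of that group had later mean Ct values, up to 33.7.

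Markers of several other cell types were present at both times. The summed level of a list adds the linear levels of its assays, with U6 at 100. Assays differ in efficiency, so a sum is compared between the times within its list only. The 7 leukocyte assays, each detected on at least 1 array, summed to 1.19 to 1.28 at 60 h and to 0.639 to 0.695 at 72 h. miR-155 had the highest mean level of this list at 60 h, -7.67, and was at -9.36 at 72 h. The mean of miR-223 went from -8.57 to -8.81. The fall of the leukocyte sum thus leans on miR-155 and was not shared alike by the list. Of the 6 tested 2 fell, near the 36.2% of all tested assays that did: miR-155 by 3.23-fold (-1.69 ± 0.07) and miR-146b by 2.55-fold (-1.35 ± 0.05), while miR-223 of myeloid cells was at -0.24 ± 0.07, miR-142-3p at -0.31 ± 0.58, miR-150 at -0.54 ± 0.08 and miR-146a at -0.41 ± 0.09. With the global mean none was called, with 3 higher and 2 lower at an unadjusted p under 0.05. Of all 265 tested assays 161 passed the adjusted p alone by that normalizer, in either direction. The 2 endothelial assays summed to 1.29 to 1.37 and then to 1.17 to 1.19. miR-126-3p had levels of -6.45, -6.53 and -6.55 at 60 h and of -6.63, -6.62 and -6.62 at 72 h (log2 -0.11 ± 0.05, adjusted p = 0.0542), and miR-126-5p was at -0.48 ± 0.06. Both stood above the median assay of the card, by 0.76 and 0.39.

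The 5 mesenchymal and smooth muscle assays summed to 1.39 to 1.43 and then to 0.883 to 0.930. Of the 4 tested, miR-199a-3p fell 2.08-fold (-1.06 ± 0.05), and miR-145 (-0.70 ± 0.05), miR-143 (-0.18 ± 0.08) and miR-214 (-0.23 ± 0.05) did not pass. Of 7 epithelial assays 5 were undetected on all 6 arrays, miR-200a, miR-200b, miR-141, miR-429 and miR-205, and miR-203 fell 2.44-fold (-1.29 ± 0.08), a call lost with all 4 other normalizers. Of 4 neural assays miR-124 and miR-137 were undetected, and miR-128a was at -0.62 ± 0.11. Erythroid cells are known for miR-451, which met the rule for detection at 60 h alone (-16.99, -18.79 and -16.07), 5.19-fold above its highest 72 h spot. The muscle lineage assays (miR-206, miR-133a, miR-133b and both miR-1 assays) summed to 29.4 to 29.9 at 60 h and to 49.3 to 52.4 at 72 h. Nearly all of this sum is miR-206, with mean levels of -1.81 at 60 h and -1.03 at 72 h. For miR-133b they were -7.16 and -6.66. The sum thus mainly restates the difference of miR-206, which was not called with U6. The part of other cells in the differences above was not tested.

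For 7 miRNAs a mouse and a rat assay were both tested, and most of these pairs gave values of the same sign. Among all 265 tested assays 218 were below 0, so a shared sign says little by itself. In the order mouse and rat, the log2 differences were -1.81 and -1.67 for miR-489, -0.68 and -0.79 for miR-190b, -1.13 and -1.43 for miR-7a* and -1.19 and -0.84 for miR-125b*. For miR-532-5p they were -0.2 ± 0.05 and -0.04 ± 0.32. miR-224 was the exception in direction. Its mouse assay fell from -13.10, -13.44 and -13.13 to -14.42, -14.37 and -14.33 (log2 -1.15 ± 0.09, adjusted p = 1.11e-06), and its rat assay stood at -14.10, -14.38 and -14.31 and then at -14.01, -13.94 and -14.05 (0.26 ± 0.08, adjusted p = 0.015). The groups did not overlap in either assay, so for miR-224 the direction is not settled.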

How the data were processed

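Total RNA was extracted with Trizol and run on TaqMan Rodent MicroRNA A and B cards (v2.0) for 40 cycles, per the labels' protocols. Each deposited file gives a Ct per spot, a score on an inverse log2 scale, per the file headers; the software and threshold behind the Ct are not given in the sources. The card of an array was read from its assay names. The 2 deposited tables were not used, with their 84 per-sample columns. Spots of an assay were averaged (59 assays of card B have 1 spot, 150 have 2), levels were taken against the mean of 4 U6 spots per array, and values at or above Ct 35 were left out. An assay was tested where 60 h and 72 h each had at least 2 arrays with it detected. The test was limma 3.58.1 in R 4.3.3 (eBayes after a linear model of the 4 groups on the 12 arrays of a card), with Benjamini-Hochberg adjustment over both cards. A call needs an adjusted p below 0.05 and at least 2-fold. Errors after ± are standard errors of these fits, with n = 3 per group, or 2 where an assay was detected on 2 arrays, as miR-34a was. The fit was tested on simulated data. Tables were handled in Python 3.11.15 with pandas 2.3.3.

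Named assays are the 10 largest called changes each way with 3 of 3 arrays detected in both groups and no overlap, the 4 leading assays each way of those detected at a single time point, a set of miRNAs of known interest, and the 2 to 4 largest changes of each list. The comparison, members and lists were chosen with earlier results of these data known. Other normalizers, detection limits, fits, spots and left-out replicates were tried as alternatives.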

Additional observations from a re-analysis of the deposited data

How the results depend on the processing

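Against 98 called assays (2 higher, 96 lower), snoRNA202 gave 46 (9 and 37), snoRNA135 59 (8 and 51), the global mean 42 (25 and 17) and Y1 84, with 7 higher. Without a fold minimum 202 passed, 23 higher and 179 lower. The count called higher was 1 with a detection limit of Ct 32, 5 with the first spot only and 6 with undetected values at Ct 35, and the number detected at 72 h alone was 10 with a limit of Ct 38. Leaving out each replicate in turn gave 92 to 101 called assays, 0 to 4 higher and 89 to 97 lower, and 0 higher was without replicate 2 of 60 h. That array and replicate 1 of 72 h decide whether miR-133a passes. Of the arrays, that one alone decides whether miR-503 does, and with a detection limit of Ct 32 miR-503 is not tested. The replicate numbers did not pair the samples (same-number correlations of deviations 0.11, -0.01 and 0.08 on card A and -0.06, -0.18 and -0.20 on card B), and a fit with the replicate block gave 98 calls, 2 higher and 96 lower.

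The named assays whose direction turned under an alternative were ones not called with U6, and in all but 5 cases it was the normalizer that turned them. With the global mean the log2 differences became 0.76 for miR-126-3p, 0.40 for miR-126-5p, 0.71 for miR-127, 0.25 for miR-128a, 0.29 for miR-130b, 0.70 for miR-143, 0.18 for miR-145, 0.47 for miR-146a, 0.26 for miR-148a, 0.34 for miR-150, 0.19 for miR-152, 0.65 for miR-214, 0.63 for miR-223, 0.21 for miR-301a and miR-301b, 0.87 for miR-322, 0.04 for miR-34a and 0.13 for miR-34c. With snoRNA202 they became 0.53 for miR-126-3p, 0.17 for miR-126-5p, 0.47 for miR-127, 0.02 for miR-128a, 0.06 for miR-130b, 0.46 for miR-143, 0.23 for miR-146a, 0.03 for miR-148a, 0.10 for miR-150, 0.41 for miR-214, 0.40 for miR-223 and 0.64 for miR-322. With snoRNA135 they became 0.42 for miR-126-3p, 0.05 for miR-126-5p, 0.36 for miR-127, 0.35 for miR-143, 0.12 for miR-146a, 0.30 for miR-214, 0.28 for miR-223 and 0.52 for miR-322. With Y1 they became 0.32 for miR-126-3p, 0.26 for miR-127, 0.25 for miR-143, 0.02 for miR-146a, 0.20 for miR-214, 0.19 for miR-223 and 0.43 for miR-322. With an array left out miR-322 ranged from -0.11 to 0.12, with 0.05 between, and miR-148b gave -0.28, -0.07 and -0.06 where it turned. Assays given above beyond the naming rule are not counted here, and some of them turned as well. With the global mean miR-142-3p was at 0.57, the mouse assay of miR-532-5p at 0.68 and miR-450a-5p at 0.41. The cause of these turns was not tested. List medians moved too: with the global mean and snoRNA202 they were 1.30 and 1.06 for the muscle-enriched list, -0.57 and -0.81 for miR-17-92, -0.87 and -1.10 for miR-29, -1.09 and -1.39 for Calcr, and 0.20 and -0.03 for Dlk1-Dio3, which turned.

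Technical replicates, 3 per group, set the limits: the p-values say nothing of other mice, and assays near Ct 35 were measured with the widest spread.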
